A study of Arabidopsis thaliana with 6 samples.

Results

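The cascade of regulators that directs the tapetum, 10 genes in all, was followed in RNA of meiocyte collections from Arabidopsis anthers. The tapetum is the anther layer that surrounds the meiocytes, feeds them and makes the outer wall of the pollen. The 10 genes were taken by locus identifier, out of 27655 genes counted. TPD1, EMS1, DYT1, TDF1, AMS, MYB80 and MS1 stand in the order in which they are known to act. bHLH010, bHLH089 and bHLH091, which pair with DYT1, are listed after them. All 10 were in the files, 9 passed the filter on low counts, and the other, MS1, had no count in any library. RNA was sequenced from knu-2 and from Ler, with 3 libraries per genotype. The name knu-2 stands for an allele of KNU (KNUCKLES), which encodes a zinc finger repressor, and Ler, the accession Landsberg erecta, was the control. The cells were pressed out of anthers of stages 4 to 7, and the labels mention no cell sorting. The labels call the 3 libraries of each genotype biological replicates. How many plants went into each is not stated, so the p-values weigh the spread among these collections, part of which may be technical.

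In the anther, meiocytes secrete the small protein TPD1, and its receptor EMS1, a leucine-rich repeat kinase, sits on the neighbouring cells that become tapetum. Their signal precedes a chain of transcription factors in the young tapetum. DYT1, a basic helix-loop-helix (bHLH) protein, acts first, the MYB protein TDF1 next, then the bHLH protein AMS, then MYB80 (also called MS188) and last MS1, a PHD finger protein. bHLH010, bHLH089 and bHLH091 are close relatives of each other that pair with DYT1 and overlap in function. The reference annotation describes DYT1 as strong in the tapetum and weaker in meiocytes, and TPD1 as present in both parietal cells and sporocytes.

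The sequences upstream of these genes are given for the letters that bHLH proteins are known to bind, the E-box CANNTG, since DYT1, AMS and the 3 bHLH relatives are themselves bHLH proteins. The E-box reads as CANNTG on both strands, and the G-box CACGTG is one form of it. In the 1000 bases before the annotated start, the number of E-boxes was 4 for TPD1, 5 for EMS1, 2 for DYT1, 5 for TDF1, 2 for AMS, 2 for MYB80, 5 for MS1, 5 for bHLH010, 0 for bHLH089 and 4 for bHLH091. Of 27443 protein-coding genes, 96.2% hold at least 1 in such a window, with a median of 3. A G-box was found before TPD1 (1) and MS1 (2), and 14.8% of all genes hold one. The models of DYT1, TDF1, AMS and MYB80 begin at the start codon, so transcription may begin further upstream. bHLH089 has no E-box to show. For the other transcription factors that were called, the E-box nearest to the gene is in capitals, with 12 bases on either side, 5′ to 3′ along the gene's strand, in the RefSeq TAIR10.1 reference of the strain Columbia, not of Ler.
DYT1, plus strand, chr4:11349572-11349601: ctttggtagtttCACTTGgactgatgggac
TDF1, minus strand, chr3:10676089-10676118: tgttactggtttCATGTGcaagttatgttc
AMS, plus strand, chr2:7330879-7330908: ctcaaatatttgCATATGtcttcacacaat
MYB80, plus strand, chr5:22718900-22718929: tcaattcatgcaCATCTGatgctaattttt
bHLH010, plus strand, chr2:13302625-13302654: tgtctccatctaCAAATGtccgtatatttc
bHLH091, plus strand, chr2:13295674-13295703: gattgcatgaccCAACTGaaatctcaatta
The windows of DYT1 and TDF1 lie inside the next gene, AT4G21326 and AT3G28480, whose ends lie 162 and 261 bases away. No 2 of the 6 E-boxes have the same letters.

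The 3 bHLH relatives moved together, as given below, and the 250 bases before their annotated starts are printed whole to set them side by side, again with E-boxes in capitals.
bHLH010, plus strand, chr2:13302416-13302665: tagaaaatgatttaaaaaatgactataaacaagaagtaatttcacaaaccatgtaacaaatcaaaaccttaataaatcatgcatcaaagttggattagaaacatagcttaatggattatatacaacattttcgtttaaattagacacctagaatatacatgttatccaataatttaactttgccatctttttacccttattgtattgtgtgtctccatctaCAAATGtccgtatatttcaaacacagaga
bHLH089, minus strand, chr1:1886905-1887154: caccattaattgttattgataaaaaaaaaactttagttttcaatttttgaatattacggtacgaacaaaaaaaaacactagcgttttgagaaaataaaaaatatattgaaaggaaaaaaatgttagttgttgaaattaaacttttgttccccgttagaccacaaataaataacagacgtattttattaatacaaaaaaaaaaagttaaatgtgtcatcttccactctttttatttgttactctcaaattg
bHLH091, plus strand, chr2:13295893-13296142: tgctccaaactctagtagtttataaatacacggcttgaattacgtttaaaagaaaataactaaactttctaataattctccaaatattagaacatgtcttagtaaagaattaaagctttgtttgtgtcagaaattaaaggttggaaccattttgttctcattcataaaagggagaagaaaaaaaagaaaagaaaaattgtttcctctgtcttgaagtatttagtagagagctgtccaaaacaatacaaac
Only bHLH010 among these 3 has an E-box in this window, where 55.3% of all genes have 1 or more. bHLH091 and bHLH010 are neighbours on chromosome 2 with 4388 bases between them, and bHLH089 is on chromosome 1. Their longest transcripts are alike at 73.4% (bHLH010 and bHLH089), 70.7% (bHLH010 and bHLH091) and 66.7% (bHLH089 and bHLH091) of aligned bases. The longest stretch that any pair shares without a mismatch is 21 bases.

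In knu-2, 7 of the 9 regulators that could be tested were higher, DYT1 was lower, and TPD1 was not called, with libraries scaled by TMM. On a scale set by tapetum marker counts, which lowers the fold changes of all genes, TPD1, EMS1, TDF1 and the 3 bHLH relatives lay below 0 and AMS was not called, as given below. The call rests on edgeR's quasi-likelihood test with an adjusted p under 0.05 over all 18422 tested genes, of which 48.1% were called, 23.6% higher and 24.4% lower. The 7 higher members stand beside that 23.6%, and the median log2 fold change of the 9 was 1.26, against 0.103 over all tested genes. The size of the rise differed along the order of action, from 1.495-fold for the receptor gene EMS1 to 5.27-fold for AMS, and MYB80 had 241 counts in knu-2 and 3 in Ler. In all 9 tested members the knu-2 and Ler libraries did not overlap, which is the case for 59.1% of all tested genes. In the same libraries KNU was at 8.63 ± 4.68 CPM (counts relative to library size, which edgeR's TMM method adjusts by a trimmed mean of gene ratios) in knu-2 and 76.8 ± 9.69 CPM in Ler (SD, n = 3 each). Libraries held 18070435 to 27995200 counts.

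**Figure D1:**
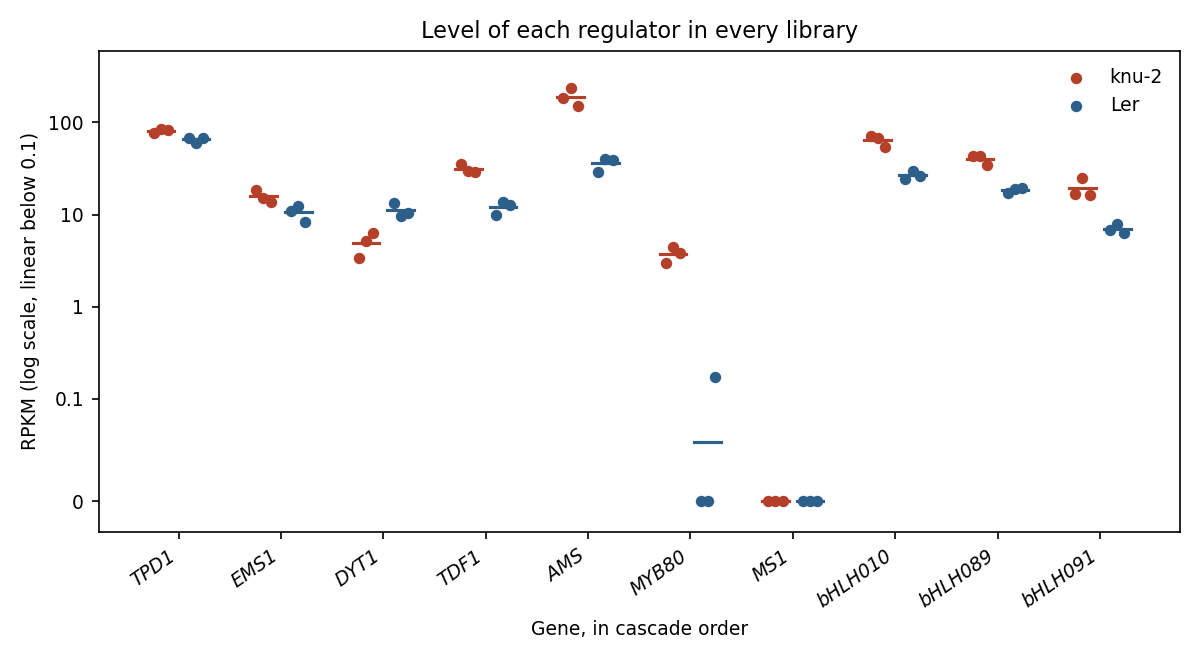
Level of each regulator in RPKM, reads per kilobase of gene scaled by TMM library size, on a log axis that is linear below 0.1. Points are libraries, bars are means of 3, and knu-2 stands left of Ler for each gene. TPD1, EMS1, TDF1, AMS, MYB80 and the 3 bHLH relatives lie higher in knu-2, DYT1 lies lower, and MS1 is at 0 throughout.

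The collections also differed in the transcripts that mark cell types, and in bulk samples like these fewer cells of a type and less RNA per cell cannot be told apart. Of 10 listed tapetum markers other than the cascade, 5 were tested and 4 of them were higher in knu-2, and their summed level was 3597 to 5145 CPM in knu-2 and 593.7 to 1070 CPM in Ler. LTP12, GRP17 and GRP19, which belong to the late tapetum, were at 0 in all libraries. Of 13 meiocyte markers, 11 were lower, 1 (REC8, named after its values were seen) was higher, and the sum was 1133 to 2027 CPM in knu-2 and 4592 to 5459 CPM in Ler. The counts of both lists stand beside 23.6% higher and 24.4% lower among all tested genes. ASY1, a protein of the chromosome axis, SPO11-1, which cuts DNA in meiosis, OSD1 and the cyclin gene TAM stood at log2 fold changes of -2.37, -3.26, -3.52 and -2.45. None of 4 epidermis markers was called by edgeR, DESeq2 or limma, and 0 had an unadjusted p under 0.05 in edgeR, with sums of 205.8 to 262.2 CPM in knu-2 and 187.9 to 308.0 CPM in Ler. PDF1, FDH, PDF2 and ATML1 had log2 fold changes of -0.12, 0.14, 0.33 and -0.23. The part of these shifts in the changes of the regulators was not tested, beyond the levels relative to tapetum markers given below.

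TPD1, the ligand gene, was not called. It was at 76.2, 84.3 and 82.1 RPKM in knu-2 replicates 1 to 3, against 67.5, 60.2 and 68.3 RPKM in Ler replicates 1 to 3. All 3 knu-2 libraries were above all 3 Ler libraries, but the gap was small beside the gaps of the later regulators. The log2 fold change was 0.31 (SE 0.15), with an adjusted p of 0.115 in edgeR. TPD1 was called when libraries were scaled by their totals alone (log2 0.63, adjusted p = 0.00404) and when genes under 5 CPM on average were dropped (0.40, adjusted p = 0.0383). Over 13 alternatives its adjusted p ran from 0.00404 to 0.351, apart from the scaling to tapetum markers, where TPD1 was lower and called (-2.08, adjusted p = 1.16e-05). TPD1 (AT4G24972) has 4 exons on chromosome 4, from 12837353 to 12840230 of TAIR10.1.

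EMS1, the receptor gene, was higher in knu-2. Its level was 18.5, 15.2 and 13.7 RPKM in knu-2 and 11.01, 12.4 and 8.23 RPKM in Ler. The lowest knu-2 library, replicate 3, lay close to the highest Ler library, replicate 2. The rise was 1.495-fold (log2 0.58, SE 0.20, adjusted p = 0.0319 in edgeR). The call was lost without Ler replicate 1 (0.60, adjusted p = 0.0735), Ler replicate 3 (0.41, 0.157) or knu-2 replicate 1 (0.43, 0.118), with DESeq2 size factors (0.0518) and with DESeq2 (0.0536). Its adjusted p ran from 0.00315 to 0.157 over 13 alternatives, apart from the scaling to tapetum markers, where EMS1 was lower and called (-1.79, adjusted p = 3.51e-05). EMS1 (AT5G07280) is a gene with 1 exon on chromosome 5, from 2284830 to 2288855.

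DYT1, the first transcription factor of the chain, was the 1 member that was lower. It stood at 3.35, 5.12 and 6.30 RPKM in knu-2 and at 13.4, 9.69 and 10.4 RPKM in Ler. All knu-2 libraries were below all Ler libraries, and knu-2 replicate 1, in which DYT1 was lowest, is also the library in which EMS1 and TDF1 were highest. The fall was 2.26-fold (log2 -1.18, SE 0.41, adjusted p = 0.0339 in edgeR) on 41 to 190 counts per library. The call was lost without any 1 of the Ler replicates (-1.04, -1.28 and -1.25, adjusted p = 0.137, 0.0661 and 0.0683) or knu-2 replicate 1 (-0.98, 0.0757), and when libraries were scaled by their totals alone (-0.85, 0.113). Over 12 alternatives its adjusted p ran from 0.019 to 0.137 and its fold change was negative in all 12. With the scaling to tapetum markers it was -3.63 (adjusted p = 4.85e-12 in edgeR). That scaling lowers the fold changes of all genes, so a gene already below 0 had to stay there, and it adds nothing to the call. In the same libraries 11 of 13 meiocyte markers were lower, against 24.4% of all tested genes, and DYT1 is annotated in both cell types. Among the knu-2 libraries, each of the 13 markers was highest in replicate 1, where DYT1 was lowest. ASY1 was at 117.6, 69.0 and 62.4 RPKM in knu-2 replicates 1 to 3. The part of each cell type in the fall of DYT1 was not tested. DYT1 (AT4G21330) has 3 exons on chromosome 4, from 11349922 to 11350694.

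TDF1, which DYT1 is known to activate, was higher. Its level was 35.1, 29.9 and 29.0 RPKM in knu-2 and 9.95, 13.5 and 12.8 RPKM in Ler. The lowest knu-2 library was at more than double the highest Ler library. The rise was 2.59-fold (log2 1.37, SE 0.22, adjusted p = 0.000345 in edgeR). It was called in all 13 alternatives other than the scaling to tapetum markers, with log2 fold changes of 1.24 to 1.69. TDF1 (AT3G28470) has 3 exons on chromosome 3, from 10674508 to 10675724.

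AMS, the bHLH regulator of pollen wall genes, reached the highest level of the 10 genes in knu-2. It was at 182, 235 and 152 RPKM in knu-2, against 28.8, 40.1 and 39.1 RPKM in Ler. The knu-2 libraries differed more among themselves than the Ler libraries did, and still lay far above them. The rise was 5.27-fold (log2 2.40, SE 0.21, adjusted p = 1.36e-05 in edgeR), and log2 fold changes ran from 2.22 to 2.73 over 13 alternatives, all called, apart from the scaling to tapetum markers, where the call was lost (0.06, adjusted p = 0.91). AMS (AT2G16910) has 8 exons on chromosome 2, from 7331721 to 7334254. Its last 29 bases overlap AT2G16920 on the other strand, and a noncoding gene, AT2G06795, which is not among the genes counted, lies within it over 440 bases on the other strand. The sources used here do not say whether counting kept the strands apart. AT2G16920 was at 25.3, 28.9 and 24.0 RPKM in knu-2 and at 32.7, 30.6 and 35.04 RPKM in Ler, so all its knu-2 libraries were below its Ler libraries.

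MYB80, which AMS acts on, was seen in every knu-2 library and in 1 of the Ler libraries. It had 56, 94 and 91 counts in knu-2 replicates 1 to 3, and 0, 0 and 3 counts in Ler replicates 1 to 3. In RPKM this was 2.97, 4.46 and 3.83 in knu-2, against 0, 0 and 0.172 in Ler. Its level in knu-2 was low beside that of AMS, and the Ler value rests on a single library. The 241 counts in knu-2 and 3 in Ler gave a ratio of 80.3 after scaling to library size, with an exact 95% interval of 27.2 to 392 that covers counting error only. Without Ler replicate 3 the remaining Ler libraries hold no count, and MYB80 was at least 58.3-fold higher in knu-2, against a floor of 3 counts over these Ler libraries. In edgeR the adjusted p was 0.00146, and between 4.58e-07 and 0.00678 over 12 alternatives, apart from the scaling to tapetum markers, where it was 0.0132. MYB80 (AT5G56110) has 3 exons on chromosome 5, from 22719191 to 22720664.

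MS1, the last regulator of the chain, had 0 counts in all 6 libraries. A count of 0 allows a level of up to 0.122 to 0.153 CPM in knu-2 libraries and 0.119 to 0.166 CPM in Ler libraries, taking 3 counts as the limit. Of the 27655 genes, 4654 (16.8%) were at 0 throughout. The late tapetum markers LTP12, GRP17 and GRP19, and CYP703A2, MS2 and UND, which MYB80 is known to act on, were also at 0 in all 6. MS1 (AT5G22260) has 3 exons on chromosome 5, from 7367635 to 7370295.

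The 3 bHLH relatives rose by similar amounts. bHLH010 was at 71.0, 68.0 and 53.8 RPKM in knu-2 and at 24.3, 29.8 and 26.4 RPKM in Ler, 2.39-fold higher (log2 1.26, SE 0.17, adjusted p = 0.000148 in edgeR). bHLH089 was at 43.2, 43.4 and 34.3 RPKM in knu-2 and at 16.9, 18.9 and 19.2 RPKM in Ler, 2.20-fold higher (log2 1.14, SE 0.17, adjusted p = 0.000277). bHLH091 was at 16.5, 24.7 and 16.4 RPKM in knu-2 and at 6.86, 7.82 and 6.30 RPKM in Ler, 2.75-fold higher (log2 1.46, SE 0.24, adjusted p = 0.000417). No library of 1 genotype overlapped with the other for any of them, and all 3 were called in the 13 alternatives apart from the scaling to tapetum markers. The make-up of the trio was compared as shares. bHLH010 took 54.3%, 50.0% and 51.5% of the summed RPKM of the 3 genes in knu-2, and 50.5%, 52.8% and 50.8% in Ler. The share of bHLH089 was 33.0%, 31.9% and 32.8% in knu-2, below its 35.2%, 33.4% and 37.0% in Ler, and that of bHLH091 was 12.7%, 18.2% and 15.7% in knu-2 and 14.3%, 13.8% and 12.1% in Ler. The shares differed by 0.523, -2.62 and 2.09 percentage points (exact two-sided permutation p = 0.7, 0.1 and 0.3, and 0.7, 0.16 and 0.4 when adjusted over the 8 ratios and shares computed). For 3 libraries against 3, p cannot go below 0.1. bHLH010 is AT2G31220 (chromosome 2, 13302666 to 13304869), bHLH089 is AT1G06170 (chromosome 1, 1884981 to 1886904) and bHLH091 is AT2G31210 (chromosome 2, 13296143 to 13298277).

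The order of the regulators by level per length was not the same in both genotypes. In knu-2 the order was AMS (189.7 RPKM), TPD1 (80.9), bHLH010 (64.3), bHLH089 (40.3), TDF1 (31.4), bHLH091 (19.2), EMS1 (15.8), DYT1 (4.93), MYB80 (3.75) and MS1. The ranges of bHLH089 and TDF1, of bHLH091 and EMS1, and of DYT1 and MYB80 overlapped. Within each knu-2 library, however, bHLH089 lay above TDF1 and DYT1 above MYB80, while the order of bHLH091 and EMS1 differed between libraries. In Ler the order was TPD1 (65.4 RPKM), AMS (36.0), bHLH010 (26.8), bHLH089 (18.3), TDF1 (12.1), DYT1 (11.2), EMS1 (10.6), bHLH091 (6.99), MYB80 (0.0574) and MS1. There the ranges of AMS and bHLH010 overlapped, although AMS was the higher in each library. Those of TDF1, DYT1 and EMS1 overlapped too, and their order differed between libraries. DYT1 thus stood beside TDF1 and EMS1 in Ler and well under both in knu-2.

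Ratios taken within a library do not depend on how libraries are scaled, and they show where neighbouring regulators parted. The log2 ratio of DYT1 to EMS1 was -2.45, -1.56 and -1.11 in knu-2 and 0.29, -0.35 and 0.35 in Ler. That of TDF1 to DYT1 was 3.37, 2.54 and 2.20 in knu-2 and -0.43, 0.48 and 0.29 in Ler. These ratios differed by -1.80 and 2.59 between the genotypes, the second being 6.02-fold. The ratio of AMS to TDF1 was 2.37, 2.97 and 2.39 in knu-2 against 1.53, 1.56 and 1.61 in Ler, which is 2.01-fold higher, and the Ler libraries were close to each other. The ratio of MYB80 to AMS, with 0.5 added to each count, was -5.93, -5.71 and -5.30 in knu-2 and -10.30, -10.93 and -7.61 in Ler, where it depends on the added count. For these 4 ratios the genotypes did not overlap, and the exact two-sided permutation p was 0.1, the smallest that 3 libraries against 3 can give (0.16 adjusted over the 8). The ratio of EMS1 to TPD1 overlapped between the genotypes, at -2.04, -2.47 and -2.58 in knu-2 and -2.62, -2.28 and -3.05 in Ler (exact permutation p = 0.4).

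**Figure D2:**
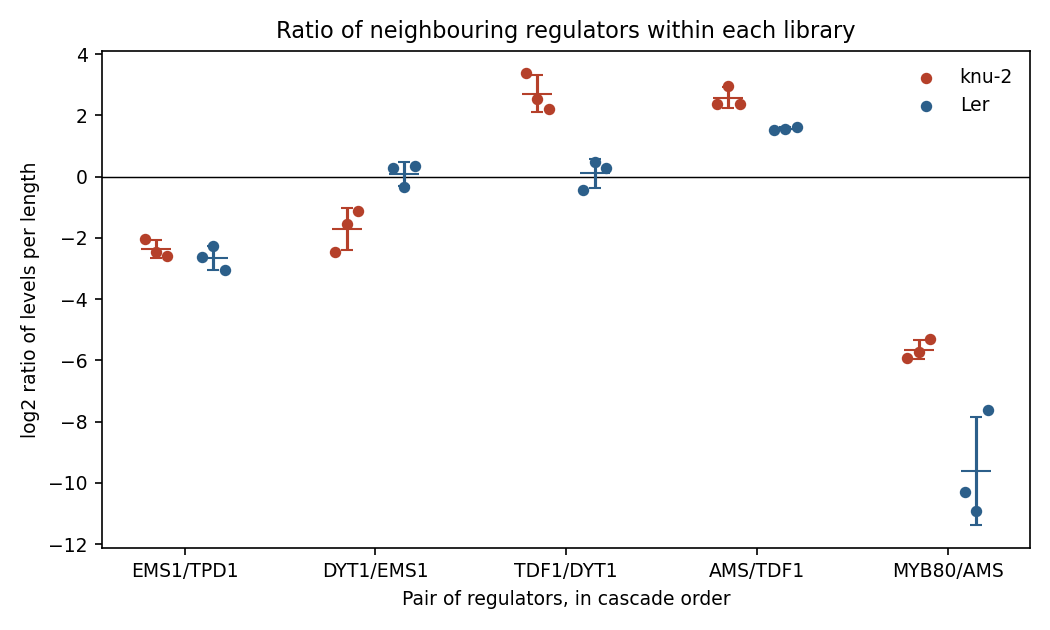
Log2 ratio of the levels per length of neighbouring regulators within each library, with 0.5 added to each count. Points are libraries, horizontal marks with bars are means ± SD of 3, and knu-2 stands left of Ler. The genotypes overlap for EMS1/TPD1 only, with DYT1/EMS1 lower and TDF1/DYT1, AMS/TDF1 and MYB80/AMS higher in knu-2.

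The regulators were also set against other tapetum transcripts of the same libraries. With libraries scaled to the summed counts of the 10 tapetum markers, AMS was not called (log2 0.06, SE 0.45, adjusted p = 0.91 in edgeR). TDF1, bHLH010, bHLH089 and bHLH091 were 1.91-, 2.12-, 2.32- and 1.93-fold lower in knu-2 on this scale (adjusted p = 0.023, 0.0133, 0.00385 and 0.0215). EMS1 was 3.47-fold, TPD1 4.24-fold and DYT1 12.4-fold lower (adjusted p = 3.51e-05, 1.16e-05 and 4.85e-12), while MYB80 remained higher (log2 3.92, SE 1.52, adjusted p = 0.0132). The edgeR fit takes the marker sum as a fixed library size. In an exact two-sided permutation test of levels relative to the markers, p was 0.8 for AMS and 0.1 for every other tested regulator. The value 0.1 is the smallest that 3 libraries against 3 can give (0.113 when adjusted over the 9). The direction of TPD1, EMS1, TDF1 and the 3 bHLH relatives depends on the scale, while DYT1 and MYB80 kept their sign. This scaling lowers the fold changes of all genes by a like amount. The median log2 fold change over all tested genes was -2.26, against 0.103 with TMM, so a change of sign is not particular to the regulators. DYT1, already below 0 with TMM, had to stay below 0. Of the marker counts, 92.7% to 98.0% come from 3 genes of lipid transfer-like proteins, AT5G62080, AT5G52160 and AT5G07230, which were 6.12-, 3.96- and 5.34-fold higher in knu-2. ATA1, another tapetum marker, was 3.48-fold higher. Genes of this kind are known to act downstream of AMS.

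**Figure D3:**
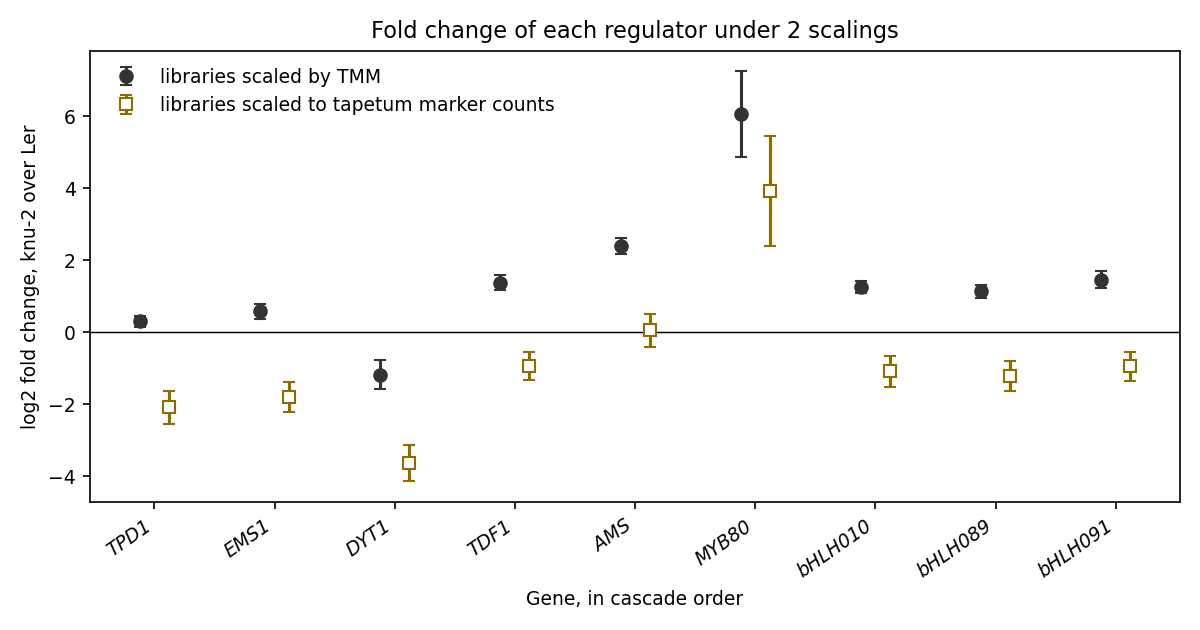
Log2 fold change of knu-2 over Ler for the 9 tested regulators, with SE from edgeR, under TMM scaling (filled circles) and with libraries scaled to tapetum marker counts (open squares). With TMM all but DYT1 lie above 0, and on the tapetum scale AMS lies at 0.06, MYB80 above it and the others below it.

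Genes known to act before or beside the chain moved in both directions. Of 17 such genes, 15 were tested, 9 were higher, 2 were lower and 4 were not called, so 73.3% of those tested were called, against 48.1% of all tested genes. Their median log2 fold change was 0.87. SERK2, a co-receptor of EMS1, was 5.00-fold higher, at 62.0 ± 3.23 CPM in knu-2 and 12.4 ± 3.39 CPM in Ler (SD, n = 3 each). SERK1, named after its values were seen, was not called (1.34-fold, adjusted p = 0.0813 in edgeR). It was at 45.7 ± 5.49 CPM in knu-2 and 34.1 ± 5.10 CPM in Ler. The transcription factors of the BES1 family, which relay the signal of EMS1, were higher in 4 cases, lower in 1 and not called in 1. BEH1 (log2 2.32, SE 0.28), BES1 (0.87, SE 0.16), BZR1 (1.19, SE 0.26) and BEH4 (1.26, SE 0.29) rose, BEH2 fell (-1.28, SE 0.36, adjusted p = 0.0134), and BEH3 stood at 1.06 (adjusted p = 0.14). BEH2, BEH3 and BEH4 are named after their values were seen. The other fall was MYB65 (-0.99, SE 0.24, adjusted p = 0.00511), also named after its values were seen, a microRNA-controlled MYB factor. MYB33, another listed MYB factor named after its values were seen, was not called (-0.20, adjusted p = 0.384 in edgeR). SPL, the regulator that starts sporogenous and anther wall fate, was 1.84-fold higher (adjusted p = 0.031). ROXY1 and CA1 had too few counts to be tested.

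Of 15 genes known to act after AMS or MYB80, 12 were tested, 6 were higher and 6 were not called. The share called, 50.0%, is near the 48.1% of all tested genes, and the median log2 fold change was 0.77. The 6 that rose are genes of pollen wall synthesis and export. LAP6, another gene of the list, named after its values were seen, was not called (1.32-fold, adjusted p = 0.26 in edgeR). CYP704B1, an enzyme that hydroxylates fatty acids, was at 192 ± 34.6 CPM in knu-2 and 26.6 ± 4.83 CPM in Ler (SD, n = 3 each), 7.22-fold higher. The acyl-CoA synthetase gene ACOS5 was 5.74-fold higher, and the reductase genes TKPR2 and TKPR1 were 4.29- and 4.30-fold higher. All 4 had adjusted p-values of 1.69e-05 or less in edgeR. CYP703A2, MS2, UND and VGD1 are among the genes known to depend on MYB80. The other genes of the list, the 6 that rose included, were not sorted by regulator and may include more of this kind. The named genes thus do not stand for the genes under MYB80 as a group. CYP703A2, MS2 and UND were at 0 in every library, and VGD1 stood at 14.1 ± 15.8 CPM in knu-2 and 21.9 ± 14.01 CPM in Ler. TEK, a chromatin protein gene that AMS is known to act on, was at 9.26 ± 3.28 CPM in knu-2 and 14.97 ± 2.89 CPM in Ler (adjusted p = 0.0968).

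**Figure D4:**
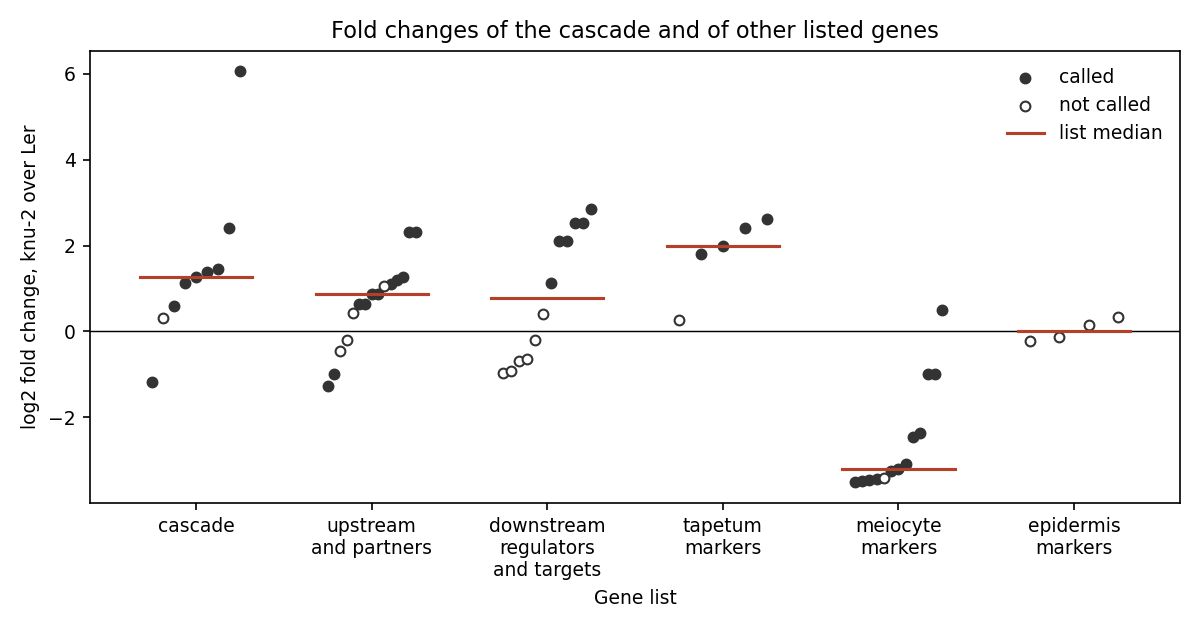
Log2 fold change of knu-2 over Ler for the tested genes of the cascade and of 5 other lists, with TMM scaling. Filled points were called at an adjusted p under 0.05, open points were not, and lines are list medians, which are 1.26 for the cascade, 1.99 for tapetum markers and -3.21 for meiocyte markers.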

How the data were processed

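Oligo-T beads selected polyadenylated RNA, which was fragmented and copied from random hexamers, per the labels' protocols. The sources used here name no aligner, counting tool, build or strand setting. For each gene and library the authors deposited a whole-number count, with no normalization as judged from the values, and the gene length in base pairs. Of 27445 genes found in TAIR10.1, 27270 (99.4%) had the merged exon length of that annotation, so its coordinates are used.

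Counts were tested in R 4.3.3 with edgeR 4.0.16 (filterByExpr, TMM, robust quasi-likelihood, genotype as the only term, Benjamini-Hochberg adjustment over 18422 genes), limma 3.58.1 and DESeq2 1.42.0, and the fits were tested on simulated data. SE values come from the test statistic. CPM and RPKM use TMM-scaled totals and the deposited lengths. Ratios add 0.5 to each count and were tested by exact permutation over libraries in SciPy 1.17.1. Libraries of 1 genotype differed beyond sampling noise (chi-square per degree of freedom at least 20.3), so none was a copy. The members and lists were chosen with earlier results of these data known. All members are named, with up to 4 called genes of smallest p per other list and every gene of lists of 5 or fewer. From the longer lists, SPL, TEK, VGD1, ROXY1, CA1, the genes at 0 throughout and those marked in the text were named outside this rule. An entry, AT4G14080, was dropped from the tapetum markers because the reference gives it another symbol. Alternatives were other scalings, filters, tools, a replicate block and leaving out each library.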

Additional observations from a re-analysis of the deposited data

How the results depend on the processing

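TDF1, AMS, MYB80 and the 3 bHLH genes kept their direction and call in every alternative in which they were tested, apart from the scaling to tapetum markers. That scaling reversed TPD1 (-2.08), EMS1 (-1.79), TDF1 (-0.94), bHLH010 (-1.09), bHLH089 (-1.22) and bHLH091 (-0.95), and so did the same scaling with AT4G14080 put back, chosen after seeing the data (-1.92, -1.63, -0.78, -0.92, -1.05 and -0.78). AMS was then at 0.22 (adjusted p = 0.621). With the replicate block DYT1 lost its call (-1.20, adjusted p = 0.0527) and no other member changed. Libraries with the same number correlated at -0.144, 0.112 and 0.0585 in their deviations from the genotype means, so they share only a number, and the block gave 8846 calls against 8856. Scaling by library totals alone gave 6149 higher and 3499 lower genes, against 4355 and 4501, fold changes shifted by a median of 0.32 (log2), and 1 endothecium and 1 pollen marker were called in place of 0. Leaving out 1 library gave 7284 to 8714 calls and 0 to 1 called pollen markers. DYT1 and MYB80 fell under the stricter filter of 5 CPM on average and were not tested there. Of the ratios and levels relative to tapetum markers, 122 of 125 alternatives, chosen after seeing the data, kept their sign. AMS relative to tapetum markers lay between -0.0637 and 0.197 and the share of bHLH010 between -0.678 and 1.51 percentage points when 1 library was left out. The cause of these changes was not tested. Depth limits DYT1, MYB80 and MS1, which had at most 190 counts per library.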

Other observations

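For each regulator, the gene with the closest profile was sought among 17412 genes that averaged at least 1 CPM, by the root mean square distance of centred log2 CPM over the 6 libraries. These are descriptions of 6 libraries that fall into 2 genotypes. For MYB80 it was ABCG9, which encodes an ABC transporter, at 5.00 CPM in knu-2 and 0.0368 CPM in Ler (distance 0.389). For AMS it was AT3G17675, a cupredoxin protein, at 134 CPM in knu-2 and 27.5 CPM in Ler (distance 0.0884). TDF1 lay closest to DML1, also called ROS1, a DNA demethylase gene (41.4 CPM in knu-2, 15.6 CPM in Ler, distance 0.0489), and DYT1 to PTAC15, a gene of plastid transcription (6.34 CPM in knu-2, 14.5 CPM in Ler, distance 0.0575). The closest genes to bHLH010, bHLH089 and bHLH091 were TFIIIA (distance 0.047), AT3G52660 (0.0451) and AT4G22000 (0.0769), and those to TPD1 and EMS1 were AT1G15420 (0.0278) and AT3G50620 (0.0697).

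Markers of the endothecium and of pollen were low. MYB26, which directs wall thickening in the endothecium, was at 4.81 ± 1.09 CPM in knu-2 and 2.10 ± 0.872 CPM in Ler (SD, n = 3 each) and was not called (adjusted p = 0.0755 in edgeR), and NST1 and NST2 were at 0 in all libraries. The 4 pollen genes summed to 7.14 to 18.1 CPM in knu-2 and 11.6 to 20.1 CPM in Ler. Their log2 fold changes were 0.66 for ANX1, -2.40 for DUO1, -2.92 for PPME1 and -1.21 for BCP1, and none was called by edgeR, DESeq2 or limma (0 with an unadjusted p under 0.05 in edgeR).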
